A study of Mus musculus with 6 samples.

Results

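The insulin-like growth factor (IGF) family was followed through 6 RNA sequencing libraries of mouse endothelial cell cultures. Its 10 members were taken from the table of gene counts by symbol. They were the 2 ligands *Igf1* and *Igf2*, the 2 receptors *Igf1r* and *Igf2r*, and the 6 binding proteins *Igfbp2*, *Igfbp3*, *Igfbp4*, *Igfbp5*, *Igfbp6* and *Igfbp7*. The table listed 24421 genes, and 13479 of them, with all 10 members, had enough reads to be tested. The deepest member in any library was *Igfbp5*, with up to 76652 reads, and the shallowest was *Igfbp6*, with as few as 43 reads.

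IGF1 and IGF2 are small secreted proteins that resemble insulin and drive growth and survival. Both bind the receptor tyrosine kinase IGF1R, which signals through insulin receptor substrates to the PI3K-Akt-mTOR and MAP kinase branches, whereas IGF2R binds IGF2, carries it to lysosomes and also sorts lysosomal enzymes. IGFBP2 to IGFBP6 hold the ligands outside the cell with high affinity, and proteases such as pappalysins release them. IGFBP7 binds IGFs weakly and is known as a matrix protein of vessels. Endothelial cells and the fibroblast-like and mural cells around them are known sources of several of these proteins.

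The cultures were grown from the stria vascularis, the vascularized epithelium in the lateral wall of the cochlea, of mice on postnatal days 10 to 12. Per the methods, the stria vascularis was taken out together with the spiral ligament of the same wall. There were 3 *Nhe6*-knockout and 3 wildtype cultures, all labelled as untreated primary endothelial cells, and each culture pooled several mice of 1 genotype. The methods state that cultured cells were sorted by flow cytometry to purify each cell type, a step meant to remove other cells. The knockout is a targeted disruption in the whole animal rather than in 1 cell type. The labels give the strain background as C57BL/6N for every culture, the methods name C57BL/6J for the mice, and genotype and breeding stock cannot be told apart here. The comparison asked which transcripts differ between the genotypes in cells that form the blood-labyrinth barrier, and the IGF family was read within it.

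Gene counts were 25587097 to 29126232 per library. Values per culture are given for *Nhe6*-knockout replicates 1 to 3 and then for wildtype replicates 1 to 3, always in that order. Wildtype replicate 2 stood apart on the first principal component, at 106 against -28.5 to -6.52 in the other 5 libraries. *Nhe6*-knockout replicates 1 and 2 were closer to each other than any other pair (chi-square per degree of freedom 4.91, against 90.1 to 398), still above sampling noise, and were kept as 2 cultures. Against the endothelial label, *Cldn5* and *Sox17* had 0 reads in every library and *Pecam1* had at most 8. *Vwf* (0 to 23.2 normalized counts), *Tie1* (0 to 2.14) and *Erg* (2.79 to 15.5) also had too few reads to be tested, and *Kdr* had 0.978 to 70.1. Some other endothelial markers were well counted, with 409 to 18385 normalized counts of *Emcn*, 866 to 5079 of *Eng*, 793 to 4864 of *Cd34* and 378 to 3174 of *Flt1*. *Cdh5* differed by genotype, with 179 to 232 normalized counts in *Nhe6*-knockout and 2508 to 5198 in wildtype cultures. Its log2 fold change, *Nhe6*-knockout relative to wildtype, was -4.15 (standard error 0.31, edgeR adjusted p = 0.0133). The 10 fibroblast markers summed to 8300 to 9516 CPM (counts relative to the library's total on genes) in *Nhe6*-knockout and 6493 to 10788 in wildtype libraries, and the 15 endothelial markers to 613 to 941 and 580 to 858, respectively. The 10 cell cycle markers summed to 224 to 422 in *Nhe6*-knockout and 41.2 to 76.3 in wildtype libraries, and the part of these differences in the results below was not tested. In such bulk libraries, fewer cells of a type and less RNA per cell cannot be told apart.

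None of the members passed the threshold of 0.05 on the adjusted p of edgeR's quasi-likelihood test, which 9 of 13479 genes (0.0668%) did. At an unadjusted p under 0.05, 1 of the 10 members passed, *Igfbp2*, beside 11.8% of all genes tested. The median log2 fold change of the members, *Nhe6*-knockout relative to wildtype, was 0.0105, beside -0.0163 over all genes tested. The *Nhe6*-knockout cultures lay below all wildtype cultures for *Igfbp2* and above all of them for *Igfbp7*, and the other 8 members overlapped between the genotypes. In wildtype replicate 2, 4 members were above all other libraries (*Igf2*, *Igf1r*, *Igf2r* and *Igfbp6*) and 4 were below them (*Igf1*, *Igfbp4*, *Igfbp5* and *Igfbp7*). Over all genes tested, 26.8% were highest and 26.5% lowest in that library.

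**Figure D1:**
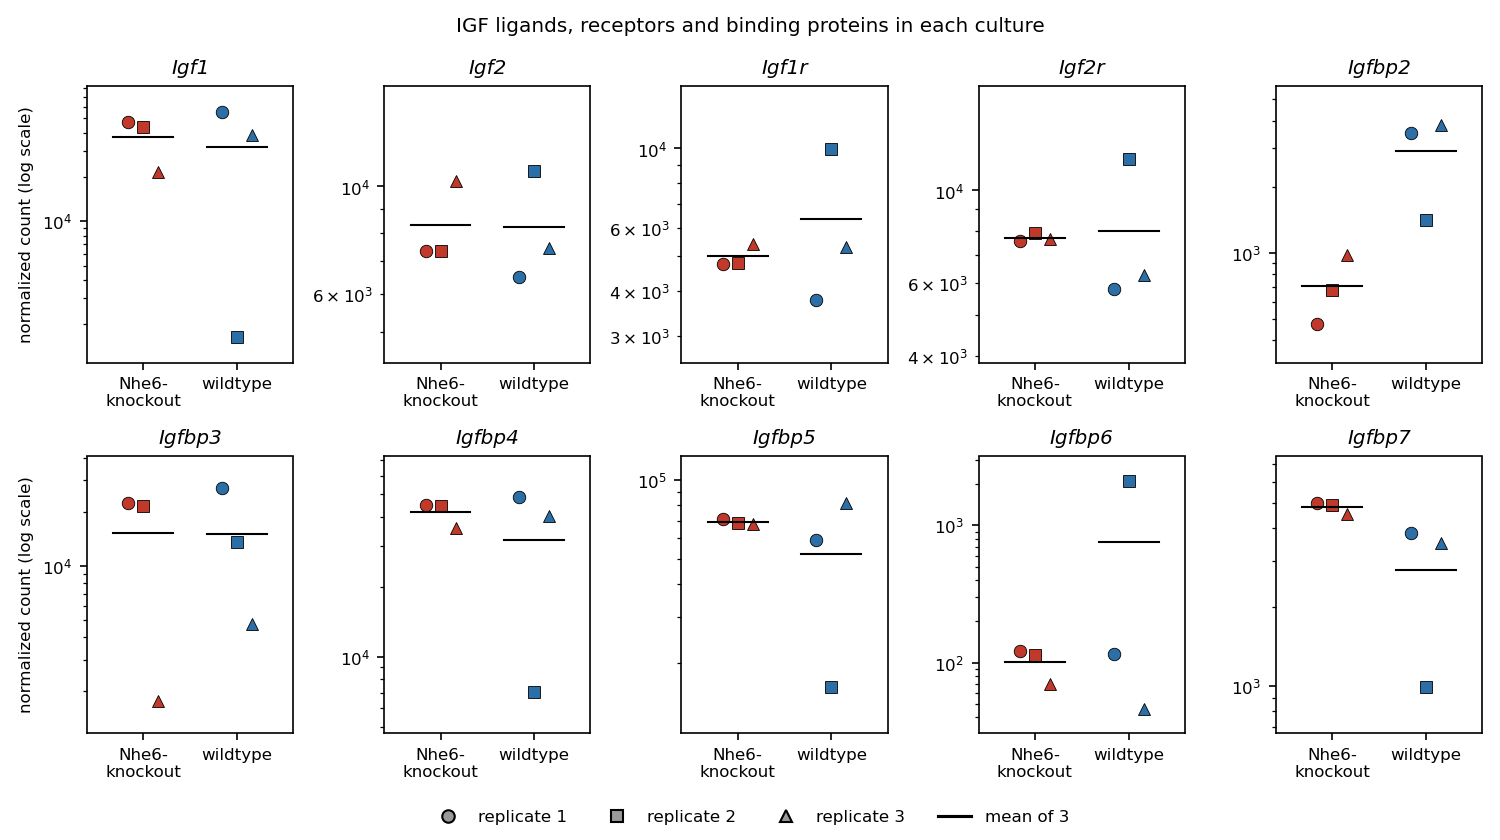
Normalized counts (log scale) of the 10 members in each culture, with *Nhe6*-knockout in red, wildtype in blue, replicate number by symbol and the mean of 3 cultures as a line. The axes differ between panels. The *Igfbp2* points separate by genotype, from 476 to 975 in *Nhe6*-knockout and from 1416 to 3838 in wildtype cultures, and wildtype replicate 2 lies far below the other cultures for *Igf1*.

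Promoter sequences are shown for the binding proteins on which the results turn. The first is *Igfbp2*, whose cultures separated by genotype with the smallest p of the family. The others are *Igfbp4*, *Igfbp5* and *Igfbp7*, whose log2 levels lay close together over the 6 libraries. All but *Igfbp2* were lowest in wildtype replicate 2, as were 26.5% of all genes tested. The order of the other cultures differed between *Igfbp4*, *Igfbp5* and *Igfbp7*. The sequences are from RefSeq on GRCm38.p6, 250 bases before to 50 bases after the first annotated start, 5′ to 3′ on the strand of the gene. Capitals mark the TATA box letters TATAAA and the GC box letters GGGCGG, searched on both strands, so that a match on the other strand reads CCGCCC or TTTATA. No marked match overlapped another.
Igfbp2 (chr1:72824230-72824529, plus strand): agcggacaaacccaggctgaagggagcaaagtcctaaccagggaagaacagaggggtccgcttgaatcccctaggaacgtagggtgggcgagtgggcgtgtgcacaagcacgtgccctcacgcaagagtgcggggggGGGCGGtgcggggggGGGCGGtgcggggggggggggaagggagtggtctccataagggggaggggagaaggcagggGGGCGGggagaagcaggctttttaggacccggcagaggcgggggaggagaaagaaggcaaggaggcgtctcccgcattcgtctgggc
Igfbp4 (chr11:99040994-99041293, plus strand): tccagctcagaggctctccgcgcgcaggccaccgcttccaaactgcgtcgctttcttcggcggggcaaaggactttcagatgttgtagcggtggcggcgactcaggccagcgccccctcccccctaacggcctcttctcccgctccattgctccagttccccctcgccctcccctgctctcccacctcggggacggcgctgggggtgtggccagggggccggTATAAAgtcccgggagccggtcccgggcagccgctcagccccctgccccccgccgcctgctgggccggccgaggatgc
Igfbp5 (chr1:72874816-72875115, minus strand): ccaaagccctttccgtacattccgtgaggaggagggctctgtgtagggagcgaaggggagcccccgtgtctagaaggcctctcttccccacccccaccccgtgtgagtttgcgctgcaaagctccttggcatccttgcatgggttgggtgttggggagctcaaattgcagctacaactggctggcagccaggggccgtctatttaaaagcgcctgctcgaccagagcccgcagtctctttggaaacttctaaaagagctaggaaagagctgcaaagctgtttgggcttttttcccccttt
Igfbp7 (chr5:77407996-77408295, minus strand): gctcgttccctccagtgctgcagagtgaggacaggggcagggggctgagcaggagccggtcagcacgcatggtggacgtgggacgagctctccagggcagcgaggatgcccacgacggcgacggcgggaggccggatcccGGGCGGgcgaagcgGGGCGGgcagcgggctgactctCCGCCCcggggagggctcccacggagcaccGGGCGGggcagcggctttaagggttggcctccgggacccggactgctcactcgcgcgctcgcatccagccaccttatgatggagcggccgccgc

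These 4 windows differed in the letters they hold. The *Igfbp2* window held 3 GC boxes and 18 CG dinucleotides, and the *Igfbp7* window 4 GC boxes and 33 CG dinucleotides. The *Igfbp4* window held a TATAAA at position -28 from the start and 27 CG dinucleotides, and the *Igfbp5* window held neither motif, nor CCAAT, and 10 CG dinucleotides. Among 32851 mouse promoters of the same length, 13.6% held TATAAA, 35.7% held GGGCGG and 37.4% held CCAAT on either strand, and the median was 7 CG dinucleotides. *Igfbp4*, *Igfbp5* and *Igfbp7*, all lowest in wildtype replicate 2, thus shared neither of the marked motifs across all 3 windows. A match is a run of letters, not a measured binding site. All 10 members matched the RefSeq table, with 14 promoters.

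To compare levels between members, CPM values were divided by the length of each gene's exons in kilobases. On this scale *Igfbp5* was highest with 367 ± 139 (SD over 6 libraries), followed by *Igfbp4* with 303 ± 125, *Igfbp3* with 176 ± 119, *Igf1* with 127 ± 72.2 and *Igfbp7* with 114 ± 45.0. The mean level of *Igfbp5* was at the 99.6th percentile of all genes tested, and that of *Igfbp4* at the 99.4th. Lower levels were found for *Igf2* (52.5 ± 11.2), *Igfbp2* (35.7 ± 29.1), *Igf2r* (30.6 ± 8.44), *Igfbp6* (14.1 ± 27.0) and *Igf1r* (12.3 ± 4.72), the last at the 70.8th percentile. The ranges over the 6 libraries of neighbours in this order overlapped in every case, so the order of neighbours lay within their spread. *Igfbp5* was first in 4 libraries, *Igfbp4* in wildtype replicate 1 and *Igfbp3* in wildtype replicate 2. At the 97.9th percentile or above were 4 of the 6 binding proteins and *Igf1*. *Igf1r* was lowest in the mean over the 6 libraries, but in no single library. *Igfbp6* was the lowest member in every library except wildtype replicate 2, where its high level brought its mean above that of *Igf1r*. The lowest mean of *Igf1r* also depended on the length used, since per kilobase of the longest transcript it was 18.05, above that of *Igfbp6*. Reads on the 10 members made up 0.580% to 0.776% of gene counts in 5 libraries and 0.268% in wildtype replicate 2.

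Of the ligands, *Igf1* varied far more between cultures than between genotypes. The gene lies on chromosome 10 from 87858265 to 87937042 (GRCm38, as all positions here). It had normalized counts of 46999, 43677 and 21509 in *Nhe6*-knockout and 55315, 1653 and 38626 in wildtype replicates 1 to 3. Wildtype replicate 2 lay 28.4-fold below the mean of the other 2 wildtype cultures. The genotype means were 37395 ± 13858 and 31865 ± 27462 (SD, n = 3 cultures each), a log2 fold change of 0.23 with a standard error of 1.03 (edgeR adjusted p = 0.953), and without wildtype replicate 2 it was -0.33 (standard error 0.36). The 95% interval, -2.25 to 2.71, leaves room for large differences in either direction. The 10 macrophage markers moved in the same library, with a summed level of 2.51 CPM in wildtype replicate 2 against 18.6 to 49.1 in the other 5. In it 6 of the 10, *Ptprc*, *Adgre1*, *Itgam*, *Aif1*, *Cx3cr1* and *Tyrobp*, were at 0. All 4 tested melanocyte markers and 5 of 7 tested epithelial markers were lowest there too, as were 26.5% of all genes tested. Of 9 tested endothelial markers, 3 were lowest and 6 highest there. The part of such cells in the *Igf1* values was not tested.

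*Igf2*, the imprinted ligand of fetal and early postnatal growth, lies on chromosome 7 from 142650766 to 142666816. It had 7362, 7365 and 10266 normalized counts in *Nhe6*-knockout and 6480, 10765 and 7461 in wildtype replicates 1 to 3. The highest culture of each genotype was thus about as high as that of the other, and the ranges overlapped almost entirely. Between the genotypes the log2 fold change was 0.02 (standard error 0.24, 95% interval -0.57 to 0.60, edgeR adjusted p = 0.983). Per kilobase, the level of *Igf1* was 1.21 to 4.93 times that of *Igf2* in 5 libraries and 0.0888 times in wildtype replicate 2, so that *Igf2* was the more abundant ligand in that culture alone. The antisense gene *Igf2os* overlaps *Igf2* and had 30 to 91 reads per library, and without a stated strand setting the reads of such a pair cannot be told apart.

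Both receptors were highest in wildtype replicate 2 and varied little among the other 5 cultures. *Igf1r*, on chromosome 7 from 67952827 to 68233668, had 4757, 4794 and 5423 normalized counts in *Nhe6*-knockout and 3784, 9965 and 5315 in wildtype replicates 1 to 3. Its log2 fold change was -0.35 (standard error 0.35, 95% interval -1.19 to 0.49, edgeR adjusted p = 0.761). Wildtype replicate 2 was 2.19 times the mean of the other 2, and the fit without it gave 0.13 (standard error 0.18). *Igf2r*, on chromosome 17 from 12682406 to 12769664, had 7573, 7884 and 7651 normalized counts in *Nhe6*-knockout and 5775, 11904 and 6241 in wildtype replicates 1 to 3. The 3 *Nhe6*-knockout cultures were close together and lay between the wildtype cultures. Its log2 fold change was -0.05 (standard error 0.29, 95% interval -0.75 to 0.65, edgeR adjusted p = 0.962) with all libraries. Without wildtype replicate 2, which was 1.98 times the mean of the other wildtype cultures, it was 0.35 (standard error 0.12, edgeR adjusted p = 0.178). *Airn*, an antisense RNA that overlaps *Igf2r*, had 108 to 174 reads.

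Among the binding proteins, *Igfbp2* had the smallest p. It lies on chromosome 1 from 72824503 to 72852474 and encodes a secreted protein that holds both IGFs and also binds integrins and matrix. It had normalized counts of 476, 675 and 975 in *Nhe6*-knockout and 3518, 1416 and 3838 in wildtype replicates 1 to 3. Every *Nhe6*-knockout culture was below every wildtype culture, which was the case for 9.57% of all genes tested. The means were 709 ± 251 and 2924 ± 1316 (SD, n = 3 each), a 4.13-fold difference, with a log2 fold change of -2.04, a standard error of 0.44 and a 95% interval of -3.11 to -0.98. In edgeR's test p was 0.00301 and the adjusted p 0.138, so the difference did not pass the threshold after adjustment. By p it was the 294th of all genes tested. The study named *Igfbp2* among its lowest genes from these same libraries, so its place is not independent evidence.

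The call for *Igfbp2* depended on the method and on 1 culture. With DESeq2's Wald test, which called 4.69% of the genes given an adjusted p, the adjusted p of *Igfbp2* was 2.57e-04. Without wildtype replicate 2, its log2 fold change was -2.38 (standard error 0.29, edgeR adjusted p = 0.0239), in a fit where 2.88% of 13728 genes passed. Over the 14 alternatives tried, the log2 fold change ranged from -2.38 to -1.81. Its adjusted p ranged from 2.57e-04 to 0.547 and was under 0.05 in these 2. The direction was thus the same in each fit, while the side of the threshold was not. The cell cycle markers also separated the genotypes, with 9 of 10 of them higher in *Nhe6*-knockout cultures without overlap, beside 10.3% of all genes tested. The part of these markers in the *Igfbp2* difference was not tested. In the fit without wildtype replicate 2, 3 of the 10 members had an unadjusted p under 0.05 (*Igfbp2*, *Igfbp7* and *Igf2r*), beside 19.5% of all genes tested there.

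*Igfbp2* and *Igfbp5* lie tail to tail on chromosome 1, with 5458 bases between them, and did not follow each other. The log2 fold change was -2.04 for *Igfbp2* and 0.40 for *Igfbp5*, and over the 6 libraries their log2 levels, each centred on its mean, differed by a root mean square of 1.40. Within 10 Mb of *Igfbp2*, 93 other genes were tested, with a median log2 fold change of -0.0559. At an unadjusted p under 0.05 in edgeR's test, 7 of them had lower and 4 had higher counts in *Nhe6*-knockout cells. After adjustment 2 passed. These were *Ptprn*, 2.42 Mb away, with a log2 fold change of 2.09 (standard error 0.15), and *Wdfy1*, 6.9 Mb away, with -2.16 (standard error 0.12). They were of opposite direction, and the part of breeding stock in differences on this chromosome was not tested.

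**Figure D2:**
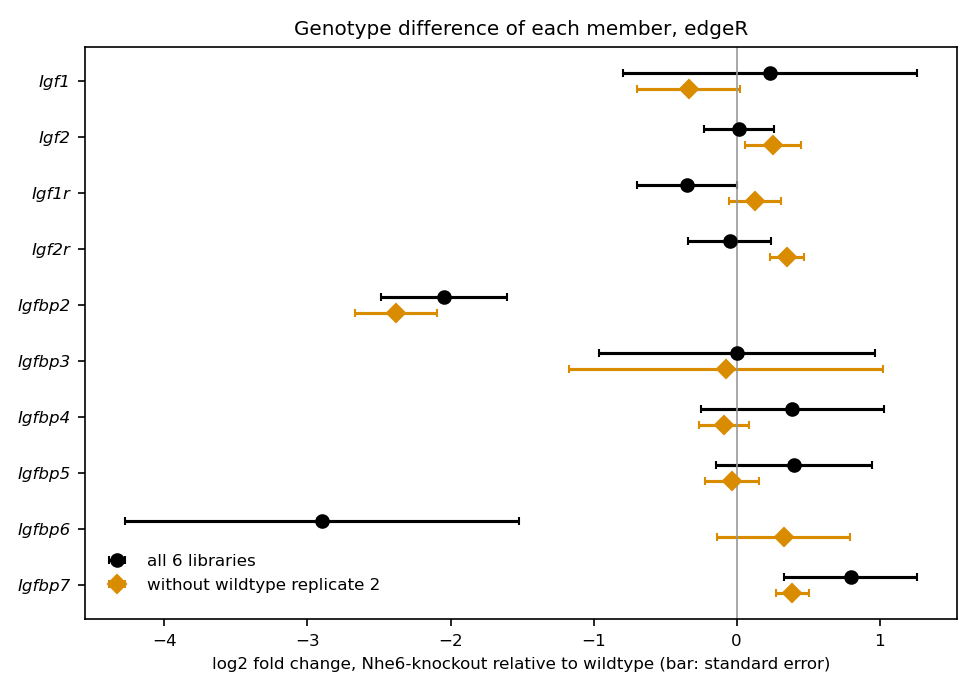
Log2 fold change of each member, *Nhe6*-knockout relative to wildtype, in edgeR with all 6 libraries (black circles) and without wildtype replicate 2 (orange diamonds), with bars of 1 standard error. *Igfbp2* lies at -2.04 and -2.38, whereas *Igfbp6* moves from -2.90 to 0.33 when wildtype replicate 2 is left out.

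*Igfbp7*, on chromosome 5 from 77349240 to 77408041, was the only member with all *Nhe6*-knockout cultures above all wildtype cultures, as was the case for 10.3% of all genes tested. It had 5002, 4921 and 4544 normalized counts in *Nhe6*-knockout and 3817, 993 and 3516 in wildtype replicates 1 to 3. The *Nhe6*-knockout cultures were close together, and the wildtype mean was pulled down by replicate 2, which lay 3.69-fold below the other 2. The means were 4822 ± 245 and 2776 ± 1551 (SD, n = 3 each), with a log2 fold change of 0.80 (standard error 0.47, 95% interval -0.33 to 1.92, edgeR adjusted p = 0.569). Without wildtype replicate 2 the log2 fold change was 0.39 (standard error 0.12, edgeR adjusted p = 0.147). *Polr2b* overlaps the end of *Igfbp7* on the opposite strand and had 3723 to 4433 reads, and since the strand setting of the counting is not stated, a share of the *Igfbp7* reads in the overlap is uncertain.

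*Igfbp4* and *Igfbp5*, the most abundant members per kilobase, were both lowest in wildtype replicate 2. IGFBP4 is the main substrate of the protease pappalysin-1, and IGFBP5 binds extracellular matrix. *Igfbp4*, on chromosome 11 from 99041244 to 99054392, had 45018, 44649 and 35761 normalized counts in *Nhe6*-knockout and 48507, 7052 and 40158 in wildtype replicates 1 to 3. *Igfbp5*, on chromosome 1 from 72857932 to 72874884, had 71136, 68338 and 67621 in *Nhe6*-knockout and 58856, 16175 and 81977 in wildtype replicates 1 to 3. In both genes wildtype replicate 2 was far below the range of the other 5 cultures, whose order differed between the genes, being 6.29-fold for *Igfbp4* and 4.35-fold for *Igfbp5* below the other wildtype cultures. The log2 fold changes were 0.39 (standard error 0.64, 95% interval -1.14 to 1.92, edgeR adjusted p = 0.863) and 0.40 (standard error 0.54, 95% interval -0.91 to 1.71, edgeR adjusted p = 0.834). Without wildtype replicate 2 they were -0.0894 (standard error 0.18) and -0.0344 (standard error 0.19).

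Between any 2 of *Igfbp4*, *Igfbp5* and *Igfbp7*, the centred log2 levels differed by a root mean square of 0.251 to 0.302 over the 6 libraries. A second close group was *Igf2*, *Igf1r* and *Igf2r*, at 0.191 to 0.253, all highest in wildtype replicate 2. Between these groups the difference was 0.988 to 1.39. The points are the same 6 libraries for every pair, and the contrast between wildtype replicate 2 and the rest weighs in each of these values. *Top2a*, a proliferation gene 17055 bases from *Igfbp4*, had a log2 fold change of 3.34 (standard error 0.40, edgeR adjusted p = 0.0652), against 0.39 for *Igfbp4*. *Tns4*, nearer at 11286 bases, had -1.46 (standard error 0.93, edgeR adjusted p = 0.610).

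*Igfbp6*, which prefers IGF2 over IGF1 as a ligand, had the largest fold change of the family, and it came from 1 culture. The gene lies on chromosome 15 from 102144362 to 102149511. It had normalized counts of 122, 113 and 70.0 in *Nhe6*-knockout and 115, 2120 and 46.0 in wildtype replicates 1 to 3. Wildtype replicate 2 was 26.3 times the mean of the other 2 wildtype cultures, which lay within or below the range of the *Nhe6*-knockout cultures. Its log2 fold change was -2.90 (standard error 1.38, 95% interval -6.21 to 0.41, edgeR adjusted p = 0.474), and without wildtype replicate 2 it was 0.33 (standard error 0.47). In the same library the 10 mural markers summed to 1279 CPM, against 590 to 883 in the other 5, with 3 of them highest and 4 lowest there. *Acta2*, the smooth muscle actin, had 16267 normalized counts against 29.3 to 1204, and *Pdgfrb*, the receptor that marks pericytes, 7790 against 14678 to 18983. Of the 10 fibroblast markers, 3 were highest and 6 lowest in that library, with *Col1a1* at 27174 against 207 to 1227 and *Pdgfra* at 10083 against 13012 to 19046. The part of such cells in the *Igfbp6* value was not tested.

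*Igfbp3*, the main carrier of IGFs in serum, had nearly equal means in the genotypes and a wide spread within them. It lies on chromosome 11 from 7206086 to 7213923. Across cultures it had 22313, 21546 and 1759 normalized counts in *Nhe6*-knockout and 27189, 13566 and 4724 in wildtype replicates 1 to 3. In each genotype the culture numbered 3 was the lowest, 12.5-fold below the mean of the other 2 in *Nhe6*-knockout and 4.31-fold in wildtype. Only 48 genes, 0.356% of those tested, were in both of these libraries at least 2-fold below each of the other 2 cultures of the genotype, and 51 genes (0.378%) were at least 2-fold above each. The log2 fold change between the genotypes was 0.00434 (standard error 0.97, 95% interval -2.32 to 2.33, edgeR adjusted p = 0.999). *Igfbp1*, 3540 bases away on the opposite strand, had 0 to 2 reads per library.

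Of the 8 listed genes of binding protein proteases and their inhibitors, 7 were tested and none differed between the genotypes at an unadjusted p under 0.05 in edgeR's test. *Adam12* and *Adam9*, metalloproteases, had log2 fold changes of 0.29 (standard error 0.15) and 0.42 (standard error 0.22). The genes *Pappa*, *Pappa2* and *Stc1* had their highest count within each genotype in the cultures numbered 3, where *Igfbp3* was lowest. Of the same list, *Stc2* and *Adam9* were instead lowest in those cultures of both genotypes. *Stc2* had 24.4, 34.4 and 17.0 normalized counts in *Nhe6*-knockout and 28.3, 72.2 and 17.1 in wildtype replicates 1 to 3. *Pappa*, which encodes the protease that cleaves IGFBP4, had 2319, 2144 and 9306 normalized counts in *Nhe6*-knockout and 1439, 4743 and 7155 in wildtype replicates 1 to 3. *Pappa2*, which encodes the protease of IGFBP3 and IGFBP5, had 93.4, 82.7 and 830 in *Nhe6*-knockout and 40.1, 111 and 921 in wildtype replicates 1 to 3. Against the mean of the other 2 cultures of the genotype this was 9.42 times in *Nhe6*-knockout and 12.2 times in wildtype. *Stc1*, which encodes an inhibitor of these proteases, had 1378, 1355 and 3102 in *Nhe6*-knockout and 1126, 622 and 4516 in wildtype replicates 1 to 3, or 2.27 and 5.17 times. *Pappa2* and *Stc1* were among the 51 genes (0.378% of those tested) at least 2-fold above the other cultures in both genotypes, and *Pappa* was not. The share of all genes with the looser order, highest within each genotype in the cultures numbered 3, was not counted. *Pappa* and *Pappa2* were named after their values were seen, and the replicate numbers are not known to mark a shared day or batch.

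*Htra1*, which encodes a serine protease that cleaves IGFBP5, separated by genotype apart from 1 culture. It had 11730, 11802 and 10711 normalized counts in *Nhe6*-knockout and 36090, 4016 and 28674 in wildtype replicates 1 to 3. Wildtype replicate 2 was the lowest library and the other 2 wildtype cultures were the highest. This gave a log2 fold change of -1.01 (standard error 0.70, edgeR adjusted p = 0.646), and without wildtype replicate 2 it was -1.51 (standard error 0.15, edgeR adjusted p = 0.0193).

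**Figure D3:**
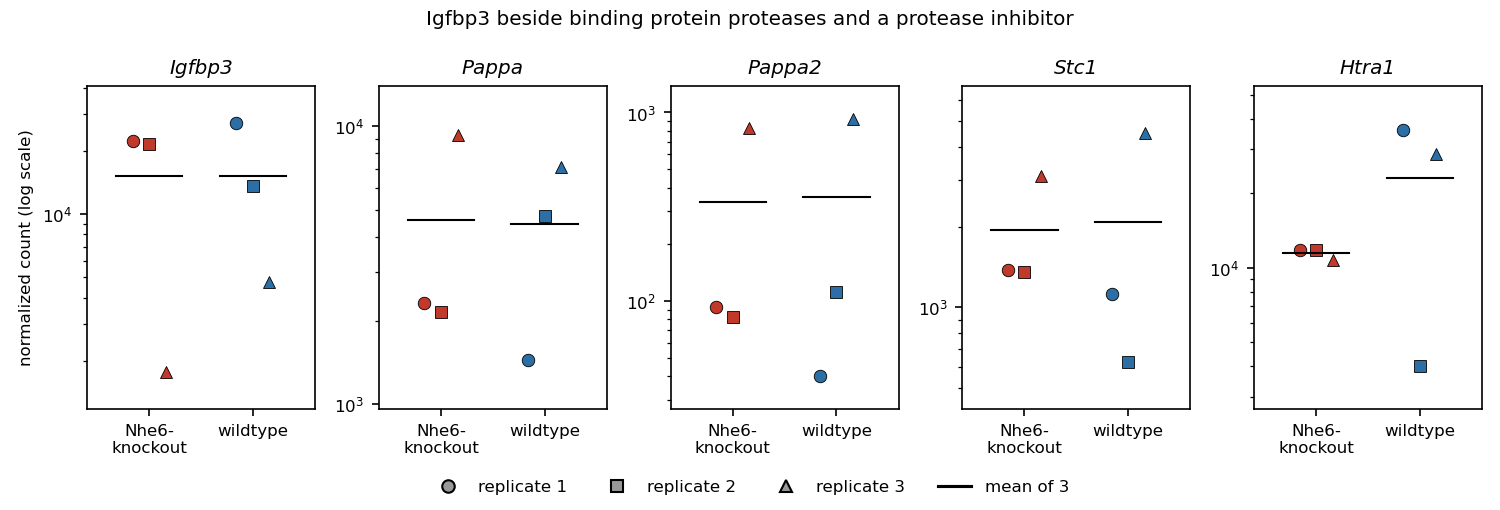
Normalized counts (log scale) of *Igfbp3*, the proteases *Pappa*, *Pappa2* and *Htra1* and the protease inhibitor *Stc1* in each culture, with *Nhe6*-knockout in red, wildtype in blue, replicate number by symbol and the mean of 3 cultures as a line. The triangles (replicate 3) are lowest for *Igfbp3*, at 1759 and 4724, and highest for *Pappa2*, at 830 and 921.

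The make-up of the binding protein pool was taken as each gene's share of the summed level per kilobase of the 6 *Igfbp* genes. The summed level was 881 to 1257 in 5 libraries and 440 in wildtype replicate 2. The share of *Igfbp2* was 0.765%, 1.11% and 2.17% in *Nhe6*-knockout and 5.50%, 6.33% and 7.10% in wildtype replicates 1 to 3. On this scale wildtype replicate 2 lay with the other wildtype cultures, although its *Igfbp2* level per kilobase was 27.8 against 69.1 and 75.4 in them. Its share is relative to the low summed level of that library. The share of *Igfbp7* was 12.3%, 12.4% and 15.5% in *Nhe6*-knockout and 9.12%, 6.78% and 9.93% in wildtype replicates 1 to 3, again without overlap. These shares are parts of 1 total and use the same reads as the counts above.

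The other shares overlapped between the genotypes. *Igfbp5* had the largest share in 4 libraries, and ranged from 22.2% to 46.6%. *Igfbp4* held 30.3% to 33.4% in 5 libraries and 13.2% in wildtype replicate 2. *Igfbp3* lay within 20.9% to 35.8% in 4 libraries and was 2.32% and 5.15% in the cultures numbered 3. *Igfbp6* was 0.141% to 0.326% in 5 libraries and 15.7% in wildtype replicate 2.

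**Figure D4:**
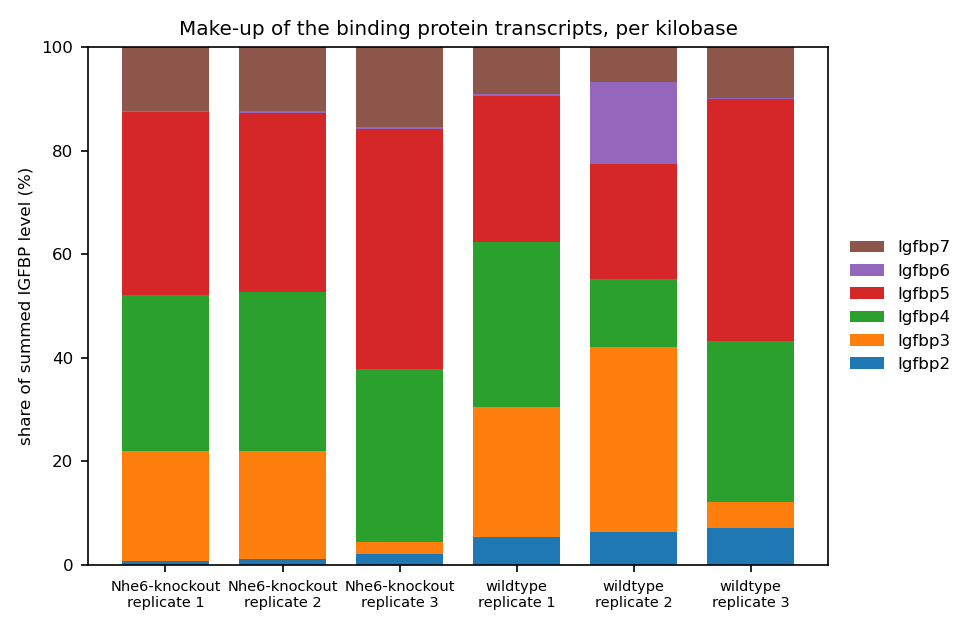
Stacked shares (%) of the 6 *Igfbp* genes in their summed level per kilobase, 1 bar per culture. The *Igfbp2* share at the foot of each bar is 0.765% to 2.17% in *Nhe6*-knockout and 5.50% to 7.10% in wildtype cultures, and the *Igfbp6* share is visible only in wildtype replicate 2.

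Of 69 other genes of the IGF pathway, 62 were tested, and none passed after adjustment in edgeR's test. At an unadjusted p under 0.05, 2 of them were below and 6 above wildtype cells in *Nhe6*-knockout cells, beside the 11.8% over all genes tested in either direction. Their median log2 fold change was -0.0408. *Igfbp1*, *Igfbpl1*, *Ins1*, *Ins2*, *Insrr*, *Adam28* and *Irs4* had too few reads to be tested, and the insulin genes among them, *Ins1* and *Ins2*, had 0 to 2 reads per library. *Insr*, the insulin receptor, had a log2 fold change of -0.03 (standard error 0.12, edgeR adjusted p = 0.954). *Igfals*, whose product stabilizes IGF complexes in serum, had 6 to 55 reads.

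The list of *Igf2* mRNA-binding proteins and imprinted growth genes had 12 members, of which 3 were higher at an unadjusted p under 0.05 in edgeR's test and none lower. Over all genes tested the share was 11.8% in either direction. Without overlap between the genotypes, 4 of the 12 were higher and 1 lower, beside 10.3% and 9.57% of all genes tested. *Igf2bp1* had 460, 455 and 532 normalized counts in *Nhe6*-knockout and 302, 186 and 330 in wildtype replicates 1 to 3, a log2 fold change of 0.82 (standard error 0.25, edgeR adjusted p = 0.270). *Igf2bp3* had 1313, 1236 and 1405 in *Nhe6*-knockout and 744, 488 and 985 in wildtype replicates 1 to 3, a log2 fold change of 0.84 (standard error 0.26, edgeR adjusted p = 0.278). Both encode proteins that bind *Igf2* mRNA, and in both the genotypes did not overlap. *Igf2bp2* did not overlap either, with a log2 fold change of 0.44 (standard error 0.18, edgeR adjusted p = 0.421). In the same cultures the cell cycle markers differed as given above, and their part was not tested.

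*H19*, the imprinted non-coding RNA 72623 bases from *Igf2*, had 8871, 8939 and 7264 normalized counts in *Nhe6*-knockout and 3150, 7306 and 4377 in wildtype replicates 1 to 3. The log2 fold change was 0.76 (standard error 0.31, edgeR adjusted p = 0.420), and without wildtype replicate 2, the highest wildtype culture, it was 1.15 (standard error 0.20, edgeR adjusted p = 0.0435). *Igf2* itself, with a log2 fold change of 0.25 (standard error 0.20) in that fit, did not pass.

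Downstream of the receptor, 1 gene of 21 in the PI3K-Akt-mTOR branch was lower and 1 was higher at an unadjusted p under 0.05 in edgeR's test. For this and the next counts, the share over all genes tested was 11.8% in either direction. *Rheb*, the small GTPase that activates mTOR, had a log2 fold change of -0.45 (standard error 0.16, edgeR adjusted p = 0.343). *Pik3r3*, a regulatory subunit of PI3K, had 0.63 (standard error 0.17, edgeR adjusted p = 0.214). Of 10 tested receptor substrates and adaptors, 2 were higher, *Shc1* with 0.38 (standard error 0.12, edgeR adjusted p = 0.2996) and the phosphatase gene *Ptpn1* with 0.53 (standard error 0.16, edgeR adjusted p = 0.270). *Shc1* passed with DESeq2 (adjusted p = 0.0385). In the MAP kinase branch, 1 of 10 genes was lower, *Mapk3*, which encodes ERK1, with -0.50 (standard error 0.16, edgeR adjusted p = 0.294). *Irs1*, the first substrate of the receptor, had a log2 fold change of -0.13 (standard error 0.36, edgeR adjusted p = 0.927).

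**Figure D5:**
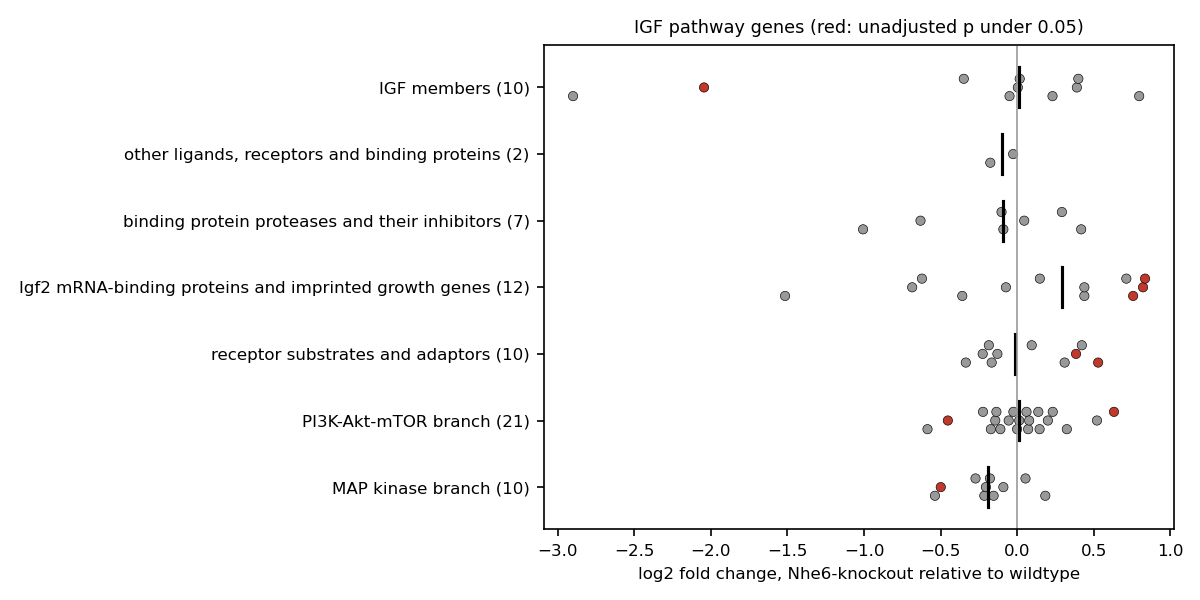
Log2 fold change, *Nhe6*-knockout relative to wildtype, of the 10 members and the 62 other IGF pathway genes tested, by list, with the number of genes in parentheses. Points are genes, red where edgeR's unadjusted p was under 0.05, and black bars are list medians, which lie between -0.19 and 0.29.

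The genes whose centred log2 levels were nearest to a member over the 6 libraries were listed for 3 members. For *Igfbp2*, the member with the smallest p, they were *Vsnl1* (root mean square difference 0.259), *Cntnap4* (0.302) and *Hist1h2be* (0.329). For *Igfbp5*, the member with the highest level, they were *Jph1* (0.0601), *Qpct* (0.0887) and *Specc1* (0.0899). For *Igfbp6*, the member with the largest fold change, they were *Perp* (0.217), *Pcdh20* (0.249) and *AI427809* (0.330). *Perp* showed the same single high culture as *Igfbp6*, with 8836 normalized counts in wildtype replicate 2 against 144 to 508 in the other 5 libraries.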

How the data were processed

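Poly(A)-enriched stranded libraries, 1 per culture, measured the RNA of 3 *Nhe6*-knockout and 3 wildtype cultures. The authors deposited raw counts of reads per gene symbol, not normalized. Per the labels, bcl2fastq 2.20.0.422, STAR 2.7.7a, HTSeq 0.13.5 and DESeq2 1.26.0 were named with the build mm10, and the strand setting of the counting is not given in the sources used here. Reads not assigned to a gene, 21.5% to 23.6% of each column, were left out, and 0 columns of per-sample values were unmapped.

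Genes were kept by filterByExpr (minimum count 10), normalized by TMM and tested by genotype in 1 fit of all 6 libraries with edgeR 4.0.16 (quasi-likelihood, two-sided, R 4.3.3), with p-values adjusted by Benjamini-Hochberg over the whole table and a threshold of 0.05. Normalized counts are TMM-scaled counts at the mean library size. The standard error is the log2 fold change divided by the square root of F. The p-values set the genotype difference against the spread between these cultures. Levels per kilobase used exon lengths of GENCODE M21 (GRCm38), which also gave the positions.

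The members and lists were chosen with earlier results of these data known. Named were the members, up to 5 genes per pathway list by p, *H19*, *Insr* and the *Igf2bp* genes, up to 4 markers per list by mean or those at 0, and the 3 nearest genes of 3 members; other genes were named after their values were seen. Alternatives were DESeq2 1.42.0, limma-voom (limma 3.58.1), other size factors and filters, a replicate block, and fits without 1 of the cultures. The fits were tested on simulated data. Over all genes tested, the deviations of same-numbered cultures correlated weakly (0.21, -0.19 and 0.11), so the numbers were not used as pairs. Some genes, such as *Igfbp3*, did move alike in the cultures numbered 3. The check of the labels on the targeted gene is not reported here.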

Additional observations from a re-analysis of the deposited data

How the results depend on the processing

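The number of genes past the threshold, 9 in the fit reported, was 21 with no filter beyond 1 count, 21 with at least 10 counts in every library, 627 with DESeq2's Wald test and 0 to 395 with 1 culture left out, 395 being without wildtype replicate 2. It was 1 with *Nhe6*-knockout replicates 1 and 2 summed, which was chosen after seeing the data. With other size factors or limma-voom it stayed within 1.5 times of 9. Of the members, 0 passed in the fit reported, 1 with DESeq2 and 0 to 1 with 1 culture left out. Of the other pathway genes, 0 passed, 1 with DESeq2 and 0 to 2 with 1 culture left out.

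A block for the replicate number gave 2 genes and no member. The numbers were not known to pair the cultures, and the deviations of same-numbered cultures correlated at 0.21, -0.19 and 0.11. With this replicate block the log2 fold change of *Igf2r* was 0.0323 and that of *Igfbp3* -0.34. With limma-voom these were 0.0288 and -0.32. *Igfbp3* was at -0.00681 without a filter and at -0.36 with the summed replicates.

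In fits without 1 of the cultures, the log2 fold change ranged from -0.33 to 0.89 for *Igf1*, -0.17 to 0.25 for *Igf2*, -0.62 to 0.13 for *Igf1r*, -0.24 to 0.35 for *Igf2r*, -0.43 to 0.73 for *Igfbp3*, -0.0894 to 0.82 for *Igfbp4*, -0.0344 to 0.87 for *Igfbp5* and -3.46 to 0.33 for *Igfbp6*, each crossing 0. It kept its sign for *Igfbp2* (-2.38 to -1.81) and *Igfbp7* (0.39 to 1.09). The cause of these shifts was not tested. By the longest transcript, the level of *Igf1r* was 18.05. Without division by length, the mean share was 50.1% for *Igfbp5* and 3.13% for *Igfbp7*. With 43 to 122 reads in 5 libraries, *Igfbp6* was the member most limited by depth.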

Other observations

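The gene nearest to *Igf1* over the 6 libraries was *Tyrobp*, an adaptor gene of macrophages (root mean square difference of centred log2 levels 0.161). It had 66.9, 69.7 and 33.1 normalized counts in *Nhe6*-knockout and 76.2, 0 and 48.1 in wildtype replicates 1 to 3. The pair was chosen after the values were seen, and both were lowest in wildtype replicate 2. With 0 counts there, the log2 level of *Tyrobp* in that library rests on the small count added before taking logs. The next nearest genes to *Igf1* were *Col6a6* (0.229) and *Tfcp2l1* (0.23).

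The second nearest gene to *Igfbp3* was *Fkbp5*, which encodes a chaperone of steroid receptors (root mean square difference 0.543). *Fkbp5* had 12211, 12104 and 2079 normalized counts in *Nhe6*-knockout and 12975, 6356 and 1627 in wildtype replicates 1 to 3. Like *Igfbp3*, it was lowest in the cultures numbered 3 of both genotypes, and the log2 fold change between the genotypes was 0.33 (standard error 0.87, edgeR adjusted p = 0.920). This pair was also chosen after the values were seen.

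Among the *Igf2* mRNA-binding proteins and imprinted growth genes, 4 of 12 had their highest normalized count in wildtype replicate 2 and 4 their lowest. Over all genes tested these shares were 26.8% and 26.5%. The 4 lowest in that library were *Igf2bp1*, *Igf2bp2*, *Igf2bp3* and *Cdkn1c*, the last with 2050 against 3527 to 9964. *Plagl1* had 6356 normalized counts there against 442 to 981 in the other libraries, *Peg3* 10390 against 957 to 7249, *Grb10*, which encodes an adaptor that binds the IGF1 receptor, 43453 against 16084 to 17299, and *Ndn* 2853 against 1917 to 2755.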
